A study of Mus musculus with 9 samples.

Results

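The 10 genes described here are 3 fibroblast growth factor (FGF) receptors and 7 genes that respond to, or restrain, the ERK kinase cascade below them: Fgfr1, Fgfr2, Fgfr3, Etv4, Etv5, Spry1, Spry2, Spry4, Dusp6 and Spred2. They were taken by gene name from a deposited expression table of 22399 rows, and all 10 were found. Its values are FPKM, fragment counts scaled to gene length and by a factor for each library. RNA came from basal keratinocytes of mouse plantar skin, the epidermal cells that rest on the basement membrane. They were sorted as CD49f positive and CD34 negative. All animals were wild-type C57BL/6, and each of the 3 groups had 3 libraries. The aged group was 24 months old, with no diet named. High-fat diet (HFD) animals were 5 months old, and control animals were 5 months old on a normal diet. The labels give neither the composition nor the length of the diet, nor whether libraries came from separate or pooled mice. The p-values below therefore measure the spread between these libraries, which may be technical.

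FGF receptors are tyrosine kinases that, once bound by an FGF and heparan sulphate, pass a signal through the adaptor FRS2 to RAS, RAF, MEK and ERK. In skin the epithelial splice form of FGFR2 receives FGF7 and FGF10 from the dermis, and loss of FGFR1 and FGFR2 from mouse keratinocytes is known to damage the epidermal barrier. ERK activity induces the transcription factors ETV4 and ETV5 and its own brakes: the Sprouty and SPRED proteins act on RAS and RAF, and the phosphatase DUSP6 acts on ERK itself. The mRNA levels of these genes are widely used as a readout of the pathway, though protein and phosphorylation were not measured here.

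Keratinocyte genes were abundant in the sorted cells, and the markers of other cell types were far lower, though not all near 0. Krt5 and Krt14, the basal keratins, averaged 11662 and 12461 FPKM over the 9 libraries, and Itga6, which encodes CD49f, averaged 140.2 FPKM. Itga6 had 123.6 ± 8.10 FPKM in aged, 163.6 ± 3.61 in HFD and 133.6 ± 3.74 in control cells (SD, n = 3 each) and rose in HFD against control (0.29 ± 0.07, adjusted p = 0.0168). Cd34 was at most 0.0671 FPKM. The fibroblast genes Col1a1, Pdgfra and Pdgfrb were at most 0.176, 0.0337 and 0 FPKM, and endothelial Pecam1 at most 0.203 FPKM. Of the 9 fibroblast markers Dcn averaged 3.68 FPKM, of the 6 Langerhans and myeloid markers Cd74 averaged 4.20 FPKM, and of the 8 sweat gland markers Slc12a2 and Acta2 averaged 20.6 and 7.63 FPKM. Depth, estimated from the value of 1 read, was 23.5 to 35.8 M reads per library. For 9 of the 10 genes the lowest library held between 555 reads (Etv5) and 13634 reads (Fgfr2), a counting error of 4.25% and 0.856%. In bulk RNA, fewer cells of a type and less RNA per cell cannot be told apart.

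Measured per length, Fgfr3 was the most abundant receptor, followed by Fgfr2, and Fgfr1 was far lower. The order of the top pair rests on length, with 10328 annotated exon bases for Fgfr2 and 7158 for Fgfr3. In estimated reads Fgfr2 was above Fgfr3 in every HFD and control library (20940 against 14794 in HFD replicate 1). It was just below Fgfr3 in every aged library (15188 against 15327 in aged replicate 1). The receptor shares and the order of levels below are per length too. Fgfr3 restrains growth in cartilage and is also active in keratinocytes. It had 64.6, 63.2 and 71.5 FPKM in aged libraries, 58.2, 63.3 and 67.7 FPKM in HFD libraries and 67.7, 83.0 and 77.6 FPKM in control libraries. The HFD libraries lay just below the control libraries without overlap, whereas the aged ones overlapped both. The log2 fold change, here always a difference of log2(FPKM + 1) ± SE from limma, was -0.19 ± 0.09 in aged against control (adjusted p = 0.211) and -0.27 ± 0.09 in HFD against control (adjusted p = 0.0638). Neither passed the threshold of 0.05. The HFD value passed it with quantile normalization (adjusted p = 0.0393), when scaled to total FPKM (0.0417), and without control replicate 1 (0.0337) or aged replicate 3 (0.0478). With the replicate number as a block it passed too (0.0324). A GC correction lowered it to -0.14 ± 0.07 (adjusted p = 0.226), and the aged value to -0.12 ± 0.07 (adjusted p = 0.334). Without control replicate 2 the aged value was -0.13 (adjusted p = 0.486).

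Fgfr2 fell in aged cells. It had 44.4, 41.5 and 46.7 FPKM in aged libraries, 57.1, 52.1 and 54.7 FPKM in HFD libraries and 51.6, 67.3 and 64.9 FPKM in control libraries. Every aged library was below every HFD and control library, and control replicate 1 lay just below the HFD libraries. The change was -0.45 ± 0.10 in aged against control (adjusted p = 0.0188), -0.15 ± 0.10 in HFD against control (adjusted p = 0.283) and -0.30 ± 0.10 in aged against HFD (adjusted p = 0.0845). Without control replicate 1 Fgfr2 also passed in HFD against control (adjusted p = 0.0491) and in aged against HFD (0.0326). Without control replicate 2 the HFD value was -0.08 (adjusted p = 0.638). The aged call against control ended when control replicate 2 or 3 or aged replicate 1 or 2 was left out (adjusted p of 0.0719, 0.0718, 0.0584 and 0.0671). Gene-level FPKM do not separate the epithelial and mesenchymal splice forms of Fgfr2. In GENCODE M21 on GRCm38 the gene's annotation spans chr7:130162451-133123350 on the minus strand. It shares 314 of its 10328 exon bases with Ctbp2 on the same strand. That span covers many other genes, Htra1 and Bub3 among them. It reaches far beyond the RefSeq start used below, whose promoter window ends at 130267058.

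Fgfr1 fell in HFD cells and was not called in aged ones. It had 11.3, 11.0 and 12.6 FPKM in aged libraries, 7.72, 8.95 and 7.24 FPKM in HFD libraries and 13.6, 12.8 and 10.1 FPKM in control libraries. All 3 HFD libraries were below all 6 others. The gene lies at chr8:25513654-25575718 on the plus strand. The change was -0.55 ± 0.11 in HFD against control (adjusted p = 0.00899) and 0.50 ± 0.11 in aged against HFD (adjusted p = 0.0214), which tests the difference between aged and HFD directly. It was -0.05 ± 0.11 in aged against control (adjusted p = 0.812). The call in aged against HFD ended without HFD replicate 1 or 3, without aged replicate 1 or 3 (adjusted p of 0.0627, 0.0811, 0.0524 and 0.0562) and with no filter on low values (0.0607). The summed FPKM of 9 fibroblast markers moved in the same order, at 3.92 to 4.74 in aged, 1.93 to 3.07 in HFD and 5.03 to 7.79 in control libraries. Dcn made up most of that sum and itself fell in HFD against control (-1.04 ± 0.16, adjusted p = 0.00239), and Pdgfrb, Lum and Dpt were listed at 0 in every library. The part of such cells in the Fgfr1 difference was not tested.

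The share of each receptor set the aged libraries apart for Fgfr2 and Fgfr3, while HFD and control libraries overlapped. Of the summed FPKM of Fgfr1 to Fgfr4, Fgfr2 made up 35.7% to 36.9% in aged, 41.9% to 46.4% in HFD and 38.8% to 42.5% in control libraries. Fgfr1 made up 9.43% to 9.60%, 5.58% to 7.20% and 6.61% to 10.2% in the same groups. Fgfr3 held 53.7% to 54.7% in aged, 47.3% to 52.2% in HFD and 50.9% in each control library. These shares sum to 100% and so are not independent of each other, and they were not tested. Fgfr4, the remaining signalling receptor, was listed at 0 in 7 libraries and reached 0.0170 FPKM at most.

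Etv4, an ETS-family transcription factor induced by FGF and ERK signalling, had the largest log2 fold change of the 9 genes tested in both comparisons with control; Spry4 was too low to test. It had 12.2, 13.2 and 14.2 FPKM in aged libraries, 10.1, 11.1 and 13.5 FPKM in HFD libraries and 25.4, 25.1 and 28.8 FPKM in control libraries. The gene lies at chr11:101769742-101785371 on the minus strand. The lowest control library stood well above the highest of the other 6. The fall was -0.95 ± 0.10 in aged against control (adjusted p = 7.2e-04) and -1.13 ± 0.10 in HFD against control (adjusted p = 7.8e-04). Aged and HFD were not called different from each other (0.19 ± 0.10, adjusted p = 0.298). Its close relative Etv5 was lower in level and more variable, with 4.08, 6.25 and 5.49 FPKM in aged, 5.50, 6.05 and 6.59 FPKM in HFD and 7.30, 6.86 and 9.53 FPKM in control libraries. Neither the aged nor the HFD libraries overlapped the controls. Etv5 passed narrowly in aged against control (-0.51 ± 0.14, adjusted p = 0.0495). That call ended in 12 of 19 alternatives, with adjusted p up to 0.162 without control replicate 3, and in HFD Etv5 was not called (-0.33 ± 0.14, adjusted p = 0.125; -0.20 without control replicate 3).

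**Figure D1:**
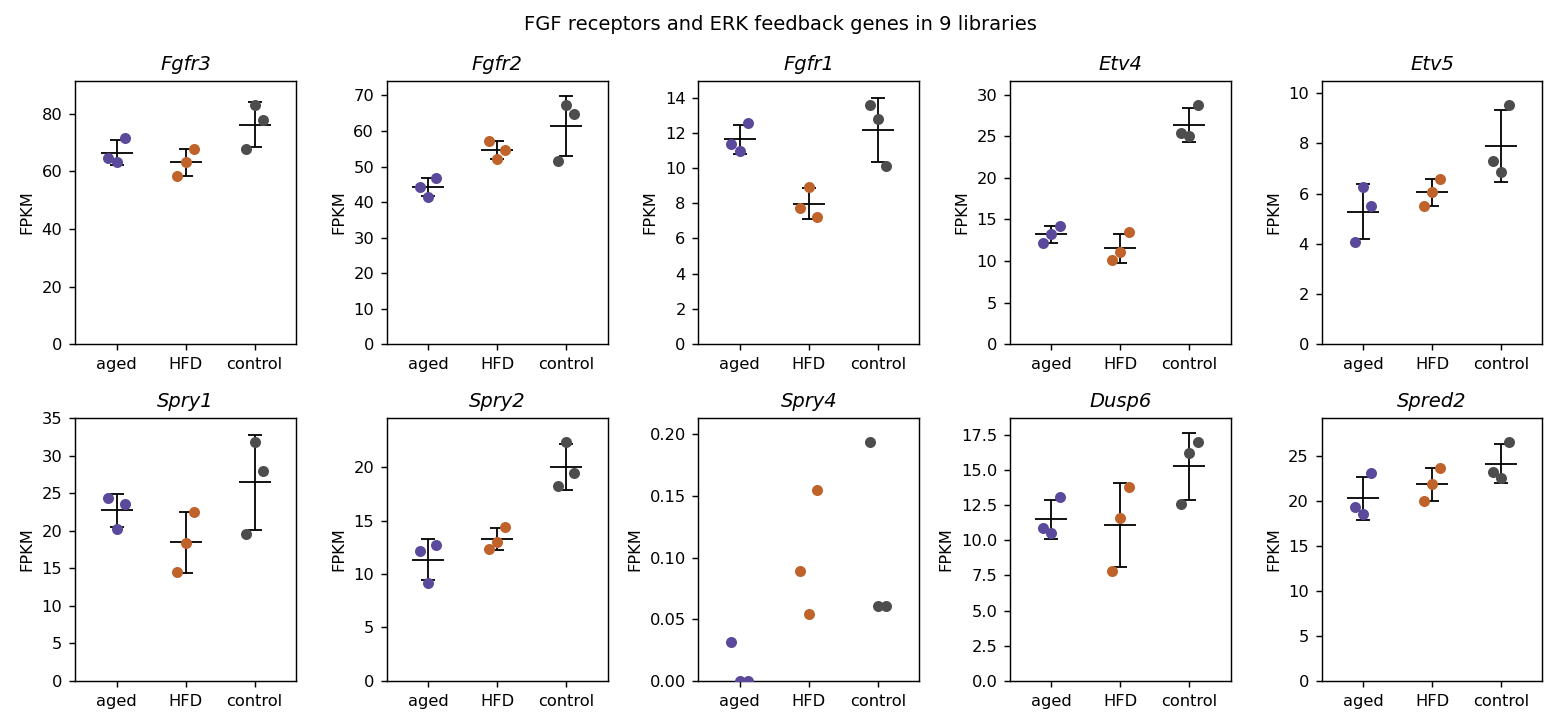
FPKM of the 10 genes in each library (points), with the mean and SD of 3 libraries (bars) in aged, HFD and control cells. Spry4, at or near 0, is shown without bars. Among the genes tested, Etv4, Spry2 and, by a narrow gap, Etv5 separate the control libraries from all 6 others. Fgfr1 separates the HFD libraries and Fgfr2 the aged ones.

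Spry2, the Sprouty protein best known as an inhibitor of receptor tyrosine kinase signalling, fell in both groups. It had 12.2, 9.17 and 12.7 FPKM in aged libraries, 12.4, 13.0 and 14.4 FPKM in HFD libraries and 18.2, 22.4 and 19.5 FPKM in control libraries. All 6 aged and HFD values were below the lowest control. The gene lies at chr14:105891947-105896819 on the minus strand. The change was -0.78 ± 0.12 in aged against control (adjusted p = 0.00360), -0.56 ± 0.12 in HFD against control (adjusted p = 0.0104) and -0.22 ± 0.12 in aged against HFD (adjusted p = 0.281). Spry1, of the same family, had 24.4, 20.2 and 23.6 FPKM in aged, 14.5, 18.3 and 22.6 FPKM in HFD and 19.5, 31.9 and 28.0 FPKM in control libraries. Its groups overlapped, and control replicate 1 lay between HFD replicates 2 and 3. It was not called in aged (-0.19 ± 0.18, adjusted p = 0.530) or HFD (-0.49 ± 0.18, adjusted p = 0.0743). The HFD value was -0.69 without control replicate 1 (adjusted p = 0.0209) and -0.64 without HFD replicate 3 (0.0473). It also passed with the replicate number as a block (0.0416). It was -0.34 without HFD replicate 1 (0.246), -0.35 without control replicate 2 (0.245) and -0.36 with the GC correction (0.168). The aged value ranged from -0.04 without control replicate 2 to -0.38 without control replicate 1, and was not called in either. The annotation places 24.4% of the Spry1 exon bases opposite Gm42922, and whether counting used strand is not given in the sources used here. For Fgfr3 the share opposite another gene was 13.9%.

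Spry4 was barely expressed and was not tested. It had 0.0317, 0 and 0 FPKM in aged libraries, 0.0888, 0.0543 and 0.155 FPKM in HFD libraries and 0.194, 0.0611 and 0.0606 FPKM in control libraries. These values correspond to 5, 0 and 0 reads in aged, 15, 7 and 19 in HFD and 30, 7 and 9 in control libraries. A count of 0 allows up to 3 reads, or 0.0199 and 0.0206 FPKM in aged replicates 2 and 3. This limit covers counting error only.

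Dusp6 and Spred2 were not called in any comparison in the main fit. Dusp6, the cytoplasmic phosphatase that inactivates ERK, had 10.9, 10.5 and 13.1 FPKM in aged, 7.85, 11.6 and 13.8 FPKM in HFD and 12.6, 16.2 and 17.0 FPKM in control libraries. The lowest control library lay inside the range of each other group. The changes, -0.38 ± 0.17 in aged (adjusted p = 0.189) and -0.45 ± 0.17 in HFD (adjusted p = 0.0873), did not pass. With the replicate number as a block they did (adjusted p of 0.0486 and 0.0171). The HFD value ranged from -0.24 without HFD replicate 1 (adjusted p = 0.285) to -0.61 without HFD replicate 3 (adjusted p = 0.0427). Spred2, a membrane-bound inhibitor of RAF activation, had 19.3, 18.6 and 23.1 FPKM in aged, 20.0, 21.9 and 23.7 FPKM in HFD and 23.3, 22.6 and 26.6 FPKM in control libraries. It was not called in aged (-0.24 ± 0.10, adjusted p = 0.151) or HFD (-0.14 ± 0.10, adjusted p = 0.352; -0.07 without control replicate 3 and -0.08 without HFD replicate 1). Without aged replicate 3 its aged value was -0.33 (adjusted p = 0.0453).

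Promoter sequence from RefSeq on GRCm38.p6 is given for Spry2, called lower in aged and HFD against control, and Fgfr2, called lower in aged only. It is also given for a pair not called in the main fit, Dusp6 and Spred2. The pairs differ by call and not by size of change: Dusp6 had -0.45 in HFD, as Fgfr2 had in aged. Each line holds the 250 bases before the annotated start, 5′ to 3′ on the gene's strand. Capitals mark AGGAAG, a core motif of ETV4 and its relatives, on either strand.
Spry2, chr14:105896820-105897069, minus strand: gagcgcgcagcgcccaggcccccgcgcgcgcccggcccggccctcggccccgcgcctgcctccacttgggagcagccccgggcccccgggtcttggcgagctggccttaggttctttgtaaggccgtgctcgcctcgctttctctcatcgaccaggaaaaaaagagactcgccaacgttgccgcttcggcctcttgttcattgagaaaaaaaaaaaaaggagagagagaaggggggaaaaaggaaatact
Fgfr2, chr7:130266809-130267058, minus strand: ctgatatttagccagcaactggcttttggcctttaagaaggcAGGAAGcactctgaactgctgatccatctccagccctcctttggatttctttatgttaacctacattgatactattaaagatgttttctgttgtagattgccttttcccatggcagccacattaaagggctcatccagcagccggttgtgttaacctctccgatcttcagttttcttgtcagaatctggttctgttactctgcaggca
Dusp6, chr10:99262981-99263230, plus strand: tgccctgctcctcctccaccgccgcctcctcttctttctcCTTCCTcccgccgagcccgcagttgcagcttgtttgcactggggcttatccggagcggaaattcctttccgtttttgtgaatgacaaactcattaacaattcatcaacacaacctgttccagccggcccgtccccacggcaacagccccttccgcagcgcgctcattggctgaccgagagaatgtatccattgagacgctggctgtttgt
Spred2, chr11:19924192-19924441, plus strand: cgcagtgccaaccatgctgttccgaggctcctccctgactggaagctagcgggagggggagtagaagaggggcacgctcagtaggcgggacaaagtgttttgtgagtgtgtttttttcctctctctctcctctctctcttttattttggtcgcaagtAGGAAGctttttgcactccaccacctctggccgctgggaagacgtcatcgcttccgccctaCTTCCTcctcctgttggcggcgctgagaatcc

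The table held 9 promoter entries for 7 of the 10 genes. Etv4, Fgfr1 and Spry4 had none. AGGAAG occurred in 3 of the 9 entries, once each in Fgfr2 and Dusp6 and at 2 places in Spred2, and in 29.5% of 32817 mouse promoter windows of the same length. The ETS motif CCGGAAG and the AP-1 motif TGANTCA, searched on both strands, occurred in none of the 9 entries and in 6.9% and 6.8% of all windows. No match says only that these letters are not in this window. The windows differed in base composition, with 62.4% G and C in Spry2, 44.0% in Fgfr2, 56.4% in Dusp6 and 56.0% in Spred2.

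Set together, the changes against control all pointed down for the 9 genes that reached the minimum mean of 1 FPKM. That minimum did not select for a change, since the lowest single value among them was 4.08 FPKM. The members themselves were chosen with earlier results of these data known. The counts below therefore describe the members and do not test them as a set. In aged against control 4 of the 9 were called lower (Fgfr2, Etv4, Etv5 and Spry2) and 0 higher, where 3.74% of 10367 genes tested were lower and 4.01% higher. In HFD against control 3 of the 9 were called lower (Fgfr1, Etv4 and Spry2) and 0 higher, where 8.76% of all genes were lower and 8.26% higher. Scaling to total FPKM changed that split to 1165 genes lower and 597 higher, beside 908 and 856 as deposited. The median change of the 9 was -0.38 in aged and -0.45 in HFD, beside -0.01 and 0.01 over all genes. The comparisons share their control libraries, so their agreement in sign is not independent. In aged against HFD, which has no control library, 1 of the 9 was called higher (Fgfr1) and 0 lower, with 3.54% of all genes higher and 4.45% lower, and the signs were split, with 4 below 0. Limma's F test among the groups called 4 of the 9, Etv4, Spry2, Fgfr1 and Fgfr2 (adjusted p of 4.97e-04, 0.00362, 0.0106 and 0.0194), and 20.4% of all genes.

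**Figure D2:**
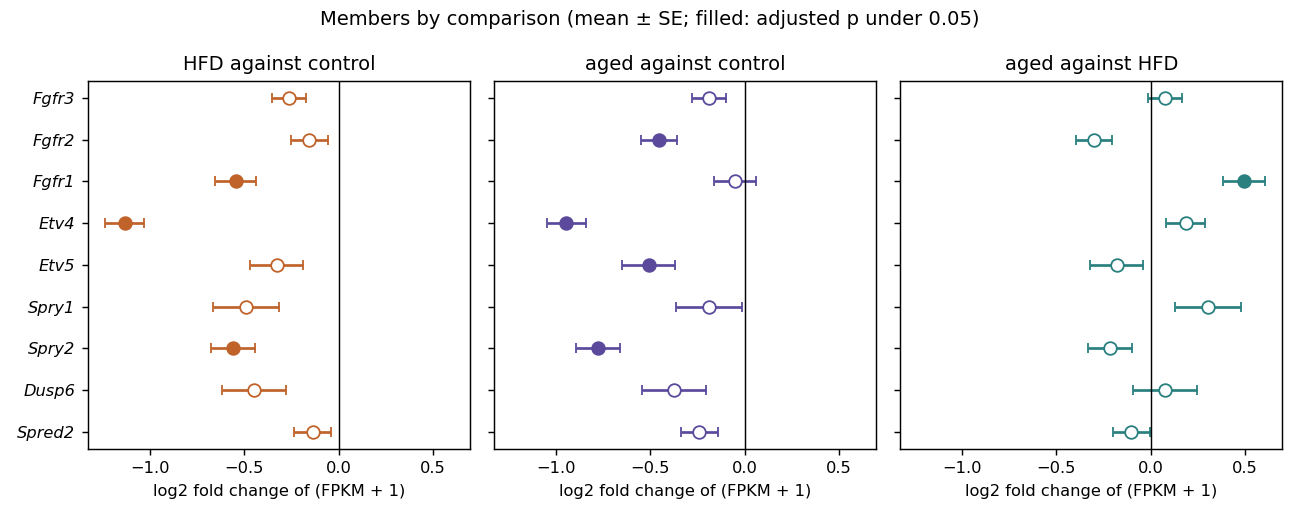
Log2 fold change of FPKM + 1 (mean ± SE, limma over 9 libraries) for the 9 genes tested, with a panel each for HFD and aged against control and for aged against HFD. Filled points have an adjusted p under 0.05. Points of both comparisons with control lie below 0, from -1.13 for Etv4 in HFD to -0.05 for Fgfr1 in aged.

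Groups did not overlap for 4 of the 9 genes in aged against control, all lower, where 14.1% of all genes were lower and 13.7% higher without overlap. They did not overlap for 5 of the 9 in HFD against control, all lower, where these shares were 19.6% and 20.8%. In aged against HFD 1 was lower without overlap (Fgfr2) and 1 higher (Fgfr1), where 15.9% and 13.9% of all genes were. Within groups, single libraries tended to be low or high for many members at once. HFD replicate 1 was the lowest HFD library for 7 of the 9 genes and HFD replicate 3 the highest for the same 7. Aged replicate 2 was the lowest aged library for 7 genes, and aged replicate 3 the highest for 7. Among controls, replicate 1 was lowest for 5 genes, both more abundant receptors included.

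The order of the levels differed between groups below the top pair. In control cells the order by mean FPKM was Fgfr3 at 76.1, Fgfr2 at 61.3, Spry1 at 26.5, Etv4 at 26.4, Spred2 at 24.2, Spry2 at 20.0, Dusp6 at 15.3, Fgfr1 at 12.1, Etv5 at 7.90 and Spry4. Only Spry1 and Etv4 were neighbours there whose means differed by less than the larger SD. Etv4 was 5th in aged cells at 13.2 FPKM and 6th in HFD cells at 11.5 FPKM. Spry2 was 8th in aged and 5th in HFD cells, Spred2 4th in aged and 3rd in HFD cells, and Fgfr1 6th in aged and 8th in HFD cells. In aged cells Fgfr1, Dusp6 and Spry2, at 11.6, 11.5 and 11.3 FPKM, lay within 1 SD of their neighbours. In HFD cells the pairs Spred2 with Spry1, Spry2 with Etv4 and Etv4 with Dusp6 did.

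Fold changes across all genes moved with the GC content of their transcripts, and the members ranged from 46.2% to 58.7% GC. Etv4, at 58.7% GC, lay in the highest of 8 GC bins, whose median change was -0.13 in aged and -0.21 in HFD against control. Spry2, at 46.2%, lay in the third bin, with medians of 0.03 and 0.07. After a GC correction per library, Etv4 had -0.86 ± 0.09 in aged and -0.96 ± 0.09 in HFD (adjusted p of 4.4e-04 and 9.6e-04). Spry2 had -0.82 ± 0.12 and -0.63 ± 0.12 (adjusted p of 0.00360 and 0.0106). Fgfr1 in HFD had -0.45 ± 0.11 (adjusted p = 0.0276) and Fgfr2 in aged -0.46 ± 0.09 (adjusted p = 0.0155), so the calls of these genes were the same with the correction.

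**Figure D3:**
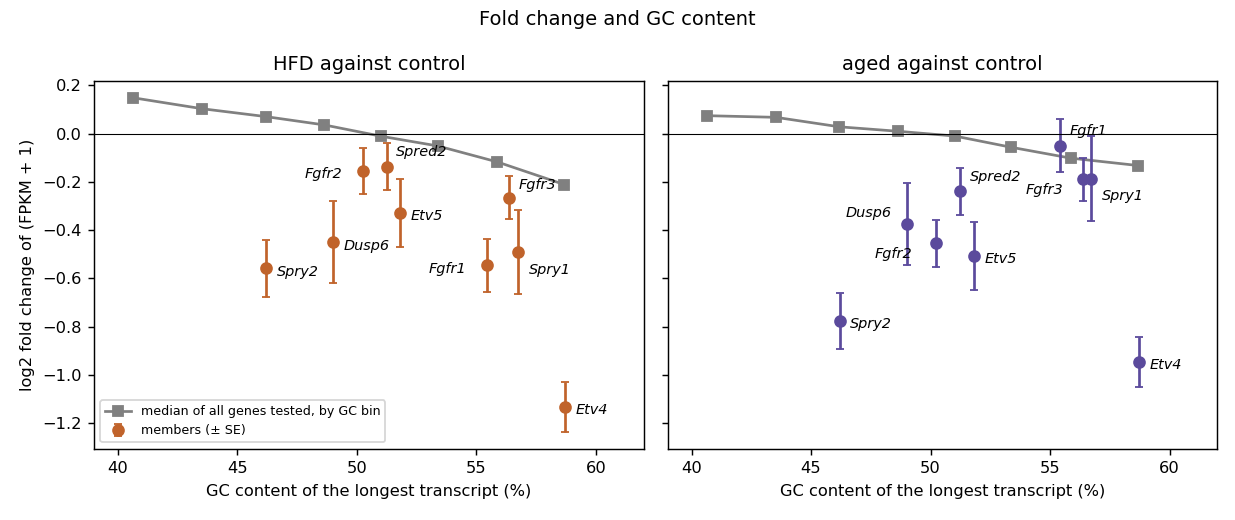
Log2 fold change of FPKM + 1 (± SE) against the GC content of the longest transcript in percent, for the 9 genes tested (circles) and as the median of all genes in 8 GC bins (squares), in HFD and aged against control. Etv4 and Spry2, at 58.7% and 46.2% GC, both lie well below the bin medians.

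The ligands of these receptors were scarce in the sorted cells. Of 22 FGF genes listed, 7 were at 0 in every library and 2 reached a mean of 1 FPKM: Fgf13, an intracellular family member that does not act through the receptors, and Fgf1. Fgf13 was the most abundant, at 3.42 ± 0.23 FPKM in aged, 4.70 ± 0.42 in HFD and 3.84 ± 0.75 in control cells (SD, n = 3 each), and neither gene was called. Fgf7 and Fgf10, the dermal ligands of epithelial FGFR2, were at most 0.0682 and 0.00709 FPKM. Receptor partners were more varied. Of 13 listed, 8 were tested, and 2 were higher and 2 lower in HFD, and 1 higher in aged, against control. The shares of all genes higher and lower were 8.26% and 8.76% in HFD and 4.01% and 3.74% in aged. Fgfbp1, a secreted carrier that releases FGFs from the matrix, was the most abundant, at 87.4 ± 6.05 FPKM in aged, 79.2 ± 8.30 in HFD and 95.6 ± 0.47 in control cells, and fell in HFD (-0.27 ± 0.08, adjusted p = 0.0439). Fgfrl1, a receptor without a kinase domain, fell in HFD (-0.59 ± 0.15, adjusted p = 0.0251), at 1.05 FPKM in aged, 0.743 in HFD and 1.65 in control cells. It reached the minimum mean of 1 FPKM for testing only with its control level, which favours a fall, so its call is given as a description. Flrt3, a transmembrane protein that promotes FGF signalling in Xenopus, rose in aged (0.43 ± 0.11, adjusted p = 0.0317) and HFD (0.36 ± 0.11, adjusted p = 0.0374). Its relative Flrt2 rose in HFD (0.56 ± 0.16, adjusted p = 0.0353) and had 0.57 ± 0.16 in aged (adjusted p = 0.0501).

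The cascade between receptor and nucleus was counted against the shares over all genes. Of 27 adaptor, RAS, RAF, MEK, ERK and RSK genes, 24 were tested. Against control 0 were called in aged, and 1 was higher and 1 lower in HFD, with medians of -0.05 and 0.04. Over all genes 4.01% were higher and 3.74% lower in aged, and 8.26% and 8.76% in HFD. The risen gene was the MEK gene Map2k1 (0.29 ± 0.07, adjusted p = 0.0217) and the fallen one the RAF-family kinase Araf (-0.39 ± 0.09, adjusted p = 0.0155). Mapk3, which encodes ERK1, was the most abundant, at 59.6 ± 3.40 FPKM in aged, 61.1 ± 2.39 in HFD and 59.5 ± 0.75 in control cells.

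Other inhibitors of the pathway were counted beside the members. Of 23 listed, 18 were tested, and in aged against control 2 were higher and 0 lower, beside 4.01% and 3.74% of all genes. Dusp1, a nuclear phosphatase and immediate early gene, had 169.7 ± 22.7 FPKM in aged, 96.7 ± 27.9 in HFD and 87.9 ± 16.5 in control cells (0.95 ± 0.19 in aged against control, adjusted p = 0.0141). Errfi1, an inhibitor of the EGF receptor, rose in aged cells by 0.59 ± 0.13 (adjusted p = 0.0219). The median was -0.06 in aged and -0.10 in HFD, where 0 were called beside 8.26% higher and 8.76% lower of all genes. Among 19 other ETS-family and related genes, 13 were tested. Against control 0 were higher and 1 lower in aged and 2 higher and 1 lower in HFD, beside the same shares of all genes. Etv6, a repressor of the family, fell in aged (-0.33 ± 0.07, adjusted p = 0.0227) and in HFD (-0.33 ± 0.07, adjusted p = 0.0138). The epithelial factors Ehf (1.57 ± 0.23, adjusted p = 0.00236) and Elf3 (0.77 ± 0.16, adjusted p = 0.00948) rose in HFD, and were lower in aged against HFD (-1.58 ± 0.23 and -0.60 ± 0.16, adjusted p of 0.00315 and 0.0402). The summed FPKM of 8 sweat gland markers was 26.1 to 28.1 in aged, 34.8 to 40.8 in HFD and 23.6 to 25.9 in control libraries. Slc12a2 and Acta2 made up most of that sum, and only these 2 of the 8 reached the minimum mean of 1 FPKM. Both rose in HFD against control, and the part of sweat gland cells in the Ehf and Elf3 values was not tested. Ets2, the most abundant, had 63.0 ± 6.49 FPKM in aged, 60.0 ± 4.70 in HFD and 59.1 ± 5.25 in control cells.

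Among other genes known to respond to ERK the calls differed between aged and HFD, though genes called in both, Fos, Ccnd1 and Odc1, had the same sign. Of 15 listed, 12 were tested. In aged against control 3 were higher and 1 lower (median 0.27), beside 4.01% and 3.74% of all genes. In HFD 2 were higher and 4 lower (median -0.13), beside 8.26% and 8.76%. Fos, an AP-1 subunit induced within minutes of ERK activation, was the most abundant. It had 465.3 ± 50.9 FPKM in aged, 229.3 ± 69.9 in HFD and 145.6 ± 25.5 in control cells, and rose by 1.68 ± 0.19 in aged (adjusted p = 8.8e-04) and 0.62 ± 0.19 in HFD (adjusted p = 0.0443). Egr1, another immediate early transcription factor, rose in aged by 1.23 ± 0.14 (adjusted p = 0.00113), and had -0.11 ± 0.14 in HFD (adjusted p = 0.615). Ccnd1, the G1 cyclin D1, rose in aged by 0.61 ± 0.08 and in HFD by 0.52 ± 0.08 (adjusted p of 0.00204 and 0.00308). Fosl1, a late AP-1 subunit, and Hbegf, an EGF receptor ligand, fell in HFD (-0.87 ± 0.23 and -0.71 ± 0.19, adjusted p of 0.0252 and 0.0268). In aged against HFD they were higher by 1.19 ± 0.23 and 1.22 ± 0.19 (adjusted p of 0.0102 and 0.00386). Epha2, an ephrin receptor, also fell in HFD (-0.36 ± 0.11, adjusted p = 0.0404). Odc1, the first enzyme of polyamine synthesis, fell in aged by 0.47 ± 0.08 and in HFD by 0.28 ± 0.08 (adjusted p of 0.00691 and 0.0369). In aged cells Etv4 and Spry2 were lower while Fos, Egr1 and Dusp1 were higher than in control cells. Summed FPKM of 8 differentiation markers was 7848 to 10913 in aged, 6047 to 8455 in HFD and 6409 to 8143 in control libraries, and 2 of the 8, Krt1 and Krt77, rose in aged against control. The part of differentiating cells in these values was not tested.

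**Figure D4:**
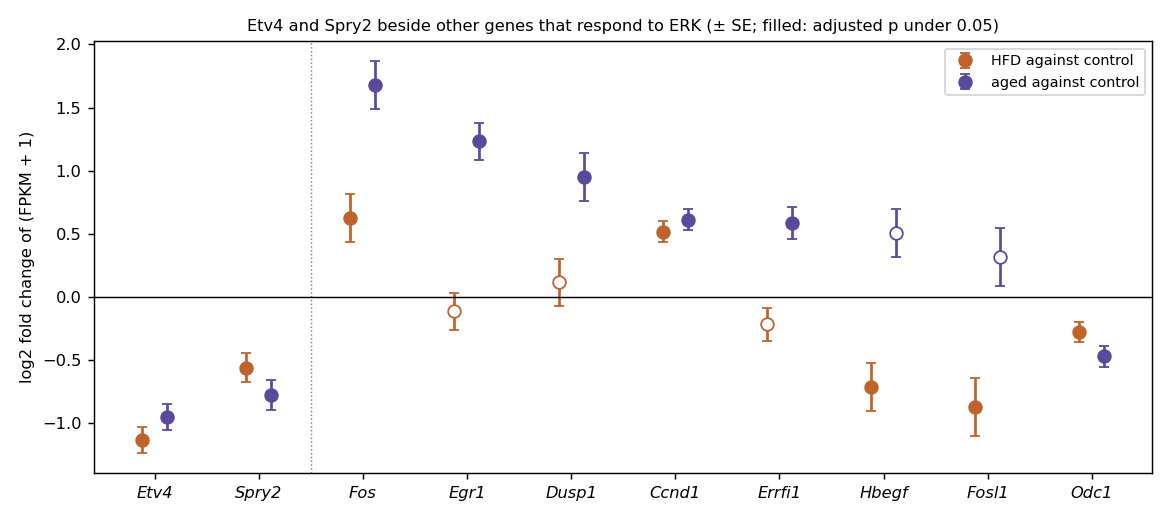
Log2 fold change of FPKM + 1 (± SE) of Etv4 and Spry2, left of the dotted line, and of 8 other genes that respond to or restrain ERK or EGF receptor signalling, in HFD against control and aged against control. Filled points have an adjusted p under 0.05. Etv4 and Spry2 are low in both, whereas Fos, Egr1 and Dusp1 in aged lie at 1.68, 1.23 and 0.95.

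The genes whose levels over the 9 libraries were most like those of the members were found by Pearson's r of log2(FPKM + 1) among 10184 other genes, predicted gene models left out. They are given as a description of these libraries, which share groups and GC composition. For Etv4 they were Pisd, a mitochondrial phosphatidylserine decarboxylase (r = 0.986), Tecpr1, a protein of autophagy (0.981), and Tmem134 (0.980). For Spry2 they were the kinase Stk25 (0.976), the ubiquitin ligase Traf7 (0.967) and the transcription factor Mlxip (0.964). Fgfr1 was closest to the Polycomb protein Pcgf2 (0.986), Ilvbl (0.977) and Clcc1 (0.962). Fgfr2 was closest to the exchange factor Arhgef4 (0.970), Magi3 (0.963) and the kinase Stk16 (0.962). The likeness was in shape and not in size: Pisd had -0.21 ± 0.07 in aged (adjusted p = 0.0931) and -0.29 ± 0.07 in HFD (adjusted p = 0.0196) against control, beside -0.95 and -1.13 for Etv4.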

How the data were processed

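The deposited data used here are 1 table of FPKM made by the authors, with a column for each of 9 RNA-seq libraries. The submitters' processing notes list the build mm10 and the tools STAR 2.6.0c, cutadapt, DESeq2 1.30.0 and HTSeq 0.11.2. Which tool made the FPKM, with which gene lengths and strand setting, is not given in the sources used here. Median-ratio factors computed from the table were 1.003 in every library, while total FPKM ran from 296456 to 314521. The values were thus already on a median-ratio scale, which leaves no further scaling of that kind to apply. Low FPKM multiplied by exon length (GENCODE M21, 22362 identifiers matched) were whole multiples of a step found for each library in 97.5% to 98.2% of values up to 30 reads (tolerance 0.02), which gave depth and reads per gene.

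The test was limma 3.58.1 (R 4.3.3) on the scale log2(FPKM + 1) (1 mean per group, all 9 libraries, eBayes with a trend, two-sided, 6 residual and 5.50 prior degrees of freedom). Genes averaging 1 FPKM or more over the 9 libraries, 10367 in number, were tested, and p-values were Benjamini-Hochberg adjusted over all of them. The scale understates changes of low genes. As a check of its working, the fit was run on simulated data with independent normal noise. That simulation had no GC trend, replicate structure or correlation between genes, so it does not bear on these. Promoter motifs were matched as exact letters.

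Members and lists were chosen with earlier results of these data known. Named genes were the members, up to 6 called genes and the most abundant gene of each pathway list, and the 3 most alike genes for the 4 members with the smallest F test p. The alternatives were a pseudocount of 0.1, no filter, a minimum of 5 FPKM, quantile normalization, scaling to total FPKM, limma's robust setting, only the 6 libraries compared, a replicate block, a GC correction (loess, span 0.5, degree 1) with and without the block, and leaving out each library. The single-cell data that the series describes were not used here. For the genes between receptor and nucleus, aged against HFD is not reported here.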

Additional observations from a re-analysis of the deposited data

How the results depend on the processing

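Across 19 alternatives, 471 of 513 values of the 9 tested members kept their direction and their side of the threshold, 21 were no longer called, 16 became called and 5 changed sign. The calls of Etv4 and Spry2 in aged and in HFD against control, and of Fgfr1 in HFD against control, held in all 19. The sign changes were of uncalled values. Fgfr1 in aged against control had 0.0058 after the GC correction, also with the replicate block, and -0.17 to 0.030 over the fits that leave out 1 library, above 0 without control replicate 1. Dusp6 in aged against HFD had -0.13 to 0.24 over those fits, below 0 without HFD replicate 1 or aged replicate 3. Where no cause is given, the cause was not tested.

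Members called lower in HFD against control numbered 3, and 6 with the replicate block. Leaving out single libraries gave 3 to 6 lower in HFD against control, with 6 without control replicate 1 and 5 without HFD replicate 3, and 2 to 4 in aged against control, with 2 without control replicate 2 or 3 or aged replicate 1. In aged against HFD it gave 0 to 1 higher and 0 to 1 lower, and the F test 3 to 5. With no filter on low values 0 members were higher in aged against HFD, and with only the 6 libraries compared 1, Fgfr2, was lower. Over all genes, no filter gave 597 lower in HFD and 244 lower in aged against control, and 225 higher in aged against HFD. Without the filter 15708 genes were tested. The GC correction gave 555 lower in HFD, and 598 with the replicate block. Scaling to total FPKM gave 597 higher and 1165 lower in HFD, beside 856 and 908, and 360 higher and 507 lower in aged against control, beside 416 and 388. Only the 6 libraries compared gave 274 higher and 195 lower in aged against control. Leaving out single libraries gave 385 to 1039 higher and 364 to 1072 lower in HFD, 190 to 592 higher and 114 to 662 lower in aged against control, 168 to 355 higher and 200 to 432 lower in aged against HFD, and 1163 to 2479 by the F test.

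The main fit did not pair libraries by replicate number. Deviations from the group means correlated at -0.05 to 0.27 between same-numbered libraries, over 0.1 in 5 of 9 pairs. In 10 of 18 cases (9 libraries, each against both other groups) a library correlated best with its own number. These values do not settle whether the numbers mark pairs. Over all genes the replicate block gave 978 higher and 1083 lower in HFD against control, beside 856 and 908. In aged against control it gave 557 and 580, beside 416 and 388, and the F test called 2500, beside 2110. With the replicate block Dusp6 passed in aged (adjusted p = 0.0486) and HFD (0.0171) against control, as did Fgfr3 (0.0324) and Spry1 (0.0416) in HFD. The SD between libraries exceeded the counting error of every tested member's lowest library.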
